A study of Mus musculus with 71 samples.

Results

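Formative and primed state genes are genes that mouse embryonic stem cells (mESCs) switch on, or keep on, as they leave naive pluripotency. The group described here held 9 genes chosen by name, Fgf5, Otx2, Pou3f1, Zic2, Zic5, Lin28a, Lin28b, Sall2 and Foxd3, out of 24138 genes with a symbol in the RNA-seq tables. WT cells were R1 mESCs. H1-TKO cells were R1 mESCs in which H1c, H1d and H1e, 3 genes of linker histones, had been disrupted by CRISPR/Cas9 with 1 guide that these genes share, followed by drug screening and picking of single-cell clones, so a line derived from a clone was compared with its parent. Both were grown on gelatin in medium with serum and LIF. Poly(A) RNA-seq was available for 2 libraries per genotype and an H3K27me3 ChIP-seq peak list for 1 replicate per genotype.

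Labels and table names gave opposite genotypes for the 4 RNA-seq libraries, and the table names were used. Each library equalled the column of that genotype in the study's own source table in 100% of the 1999 rows read, within a relative tolerance of 0.001. Every RNA-seq direction below would turn around if the labels were right, and those of the peak lists would not. The knocked-out genes do not settle the matter. H1c was at 11.6 and 56.7 normalized counts in WT against 18.7 and 7.4 in H1-TKO. H1d was at 3.9 and 41.4 against 1.1 and 0, and H1e was at 5.4 and 19.6 against 0 and 2.1. Linker histone transcripts mostly lack a poly(A) tail, all 3 genes were low in all 4 libraries, and neither tested one passed the test (limma adjusted p = 0.39 for H1c and 0.105 for H1d). The 2 WT libraries stood further apart than the 2 H1-TKO libraries for several genes named below, among them Foxd3, Klf4, Lefty2, Krt8 and Nes. The study describes its RNA-seq duplicates as independent, and the labels give no culture for either.

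In the embryo, the epiblast passes from a naive state before implantation through a formative state to a primed state. OTX2 and POU3F1 are transcription factors of the exit from the naive state, FGF5 is a classical marker of the epiblast after implantation, and ZIC2 occupies enhancers in the later states. H3K27me3, the mark set by Polycomb repressive complex 2 (PRC2), lies over the CpG-rich starts of many developmental genes that mESCs keep silent or poised. LIN28A and LIN28B bind RNA and block the maturation of let-7 miRNAs.

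The RNA-seq values are normalized counts, which are read counts that the authors divided by a size factor of each library. The recovered depth was 10538507 and 8292007 reads for WT and 6951619 and 7346122 reads for H1-TKO, and 1 read was worth 0.776 to 1.10 normalized counts. Differences between genotypes are log2 fold changes (H1-TKO minus WT) of log2(normalized count + 1) from limma, with p-values adjusted over all 11113 accessions that had a mean of at least 10. In such bulk libraries fewer cells that express a gene and less RNA per cell cannot be told apart.

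Of the 9 genes, 6 had a single RefSeq accession in the tables and could be measured. All 6 passed the filter on low values. Zic2, Zic5, Pou3f1 and Lin28b fell in H1-TKO mESCs at a limma adjusted p under 0.05, and Lin28a and Foxd3 did not pass the test. None rose by limma, edgeR or DESeq2, and at an unadjusted p under 0.05 the count was also 0, since all 6 log2 fold changes were below 0. Against these 4 of 6, the share of all accessions called lower was 10.7% (1188) and the share called higher 9.84% (1094). Both H1-TKO libraries lay below both WT libraries for 5 of the 6 genes, and for 34.2% of all accessions tested. The median log2 fold change was −1.58 over the 6 genes and −0.025 over all accessions. The plot of values by library shows the separation gene by gene.

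**Figure D1:**
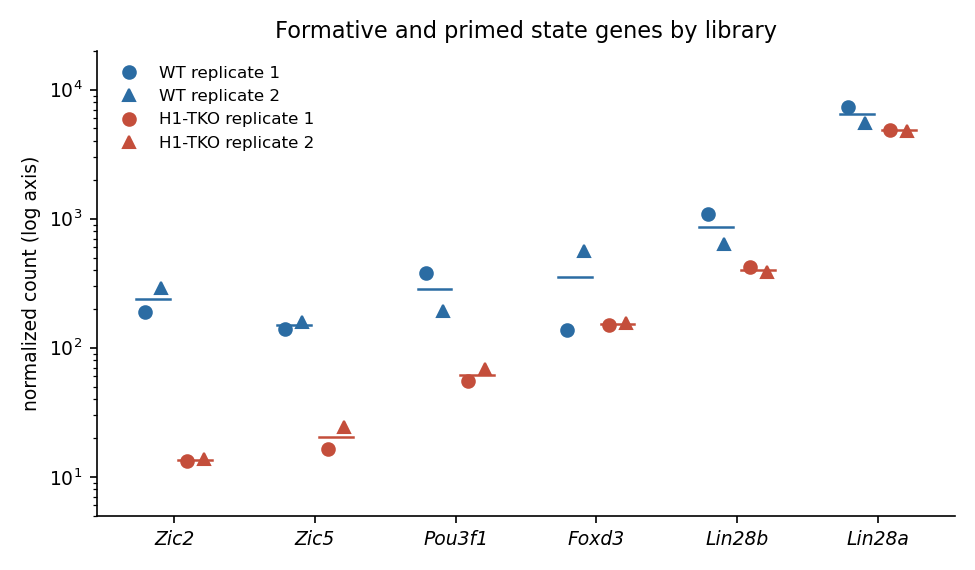
Normalized counts (log axis) of the 6 measured genes in each library, circles for replicate 1 and triangles for replicate 2, with a line at the mean of each genotype. For Zic2, Zic5 and Pou3f1 both WT libraries lie well above both H1-TKO libraries, while Foxd3 has 1 WT library at 138.1 beside H1-TKO libraries at 149.8 and 154.8.

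FGF5 is a secreted ligand of FGF receptors. The gene lies on the plus strand of chr5:98683203-98706049 (mm9, GENCODE M1, as for all places below). It was listed under 2 accessions, both with 0 reads in all 4 libraries. Otx2, a homeobox gene on the minus strand of chr14:49277354-49287319, was listed under 4 accessions with at most 4.4 normalized counts. Sall2 encodes a spalt-like zinc finger protein and lies on the minus strand of chr14:52930847-52948437. Its 2 accessions reached at most 9.8. None of the 3 genes can be taken as measured, since a read in an exon that several accessions share may have been counted for none of them. How the authors counted such reads is not given in the sources used here. The highest accession stayed under a mean of 1 normalized count in 49.6% of the 5158 genes with several accessions and in 30.6% of the 18980 genes with 1. The expression of Fgf5, Otx2 and Sall2 is therefore not compared between genotypes.

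Zic2 and Zic5 showed the largest differences among the measured genes. Both encode zinc finger transcription factors of the ZIC family. They lie head to head on chromosome 14, Zic5 on the minus strand of chr14:122856017-122864899 and Zic2 on the plus strand of chr14:122874604-122879074, with 9.7 kb between their starts. Zic2 (NM_009574) was at 189.3 and 288.0 normalized counts in WT against 13.2 and 13.7 in H1-TKO. The H1-TKO values rest on 12 and 13 reads. WT was thus far above H1-TKO, with a spread of 239 ± 69.8 against 13.5 ± 0.333 (mean ± SD, n = 2). Its log2 fold change was −4.02 (SE 0.37, limma adjusted p = 0.00199), which ranked 48th from the lowest of 11113 accessions. Zic5 (NM_022987) was at 140.4 and 158.2 in WT against 16.5 and 24.2 in H1-TKO, the latter from 15 and 23 reads. The genotypes did not overlap, and its log2 fold change was −2.83 (SE 0.37, limma adjusted p = 0.00501).

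The sequence before the Zic2 start is dense in CpG dinucleotides. Over the 250 bases upstream of the start, chr14:122874354-122874603 on the plus strand, 31 CpGs were found, against a median of 9 over the same windows of 22220 protein-coding genes. It is shown here with each CpG in capitals, beside a stretch of each of the 2 peaks that the H1-TKO list held near the pair. The second sequence, chr14:122875293-122875492 on the plus strand, is coding sequence of Zic2 and holds 25 CpGs in 200 bases. The third, chr14:122862477-122862676 on the minus strand, is Zic5 intron and holds 8.
Zic2 upstream: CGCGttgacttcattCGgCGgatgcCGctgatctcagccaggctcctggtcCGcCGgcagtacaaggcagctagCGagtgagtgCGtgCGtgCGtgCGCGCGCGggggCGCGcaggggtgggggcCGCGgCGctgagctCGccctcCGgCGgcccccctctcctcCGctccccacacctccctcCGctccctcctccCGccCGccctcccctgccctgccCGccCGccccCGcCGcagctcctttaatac
Zic2 coding exon in the H1-TKO peak: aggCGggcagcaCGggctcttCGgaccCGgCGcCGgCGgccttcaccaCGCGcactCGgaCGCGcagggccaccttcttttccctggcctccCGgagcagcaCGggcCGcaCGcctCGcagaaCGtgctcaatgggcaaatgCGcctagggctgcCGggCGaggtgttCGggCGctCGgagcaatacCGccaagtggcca
Zic5 intron in the H1-TKO peak: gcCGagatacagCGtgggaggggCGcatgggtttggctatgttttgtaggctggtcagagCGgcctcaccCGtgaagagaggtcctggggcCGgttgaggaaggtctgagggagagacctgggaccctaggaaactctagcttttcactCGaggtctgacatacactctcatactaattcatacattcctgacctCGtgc

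In the H3K27me3 lists, Zic2 and Zic5 each had an H1-TKO peak at most 2 kb from a start, and no WT peak there. The Zic2 peak, chr14:122874719-122876066, was 1348 bp wide, began 62 bp past the nearest annotated start and had its centre in a coding exon. Its score of 69.11 was at percentile 42.5 of the H1-TKO list. The score grows with the −log10 of the p-value that MACS gave the peak, and the lowest score in the WT list was 50.01. The Zic5 peak, chr14:122862174-122862979, was 806 bp wide with a score of 108.75, lay in the intron, 1920 bp past the nearest start. The nearest WT peak was 24.6 kb from the Zic2 start and 14.9 kb from the Zic5 start. Of 22225 protein-coding genes, 2.34% had a peak within 2 kb in the H1-TKO list only. Among the 251 tested genes with an H1-TKO peak only, 33 (13.1%) were called lower, beside 10.7% of all accessions tested. From 100 kb before Zic5 to 100 kb after Zic2 the WT list held 1 peak and the H1-TKO list 6, as the map of the pair shows. On chromosome 14 the lists held 190 WT and 217 H1-TKO peaks, a ratio of 1.14 in number and 0.968 in covered length, against 0.900 and 0.863 over the genome. With 1 list per genotype these differences have no replicate check, and a region without a listed peak may hold signal below the caller's limit.

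**Figure D2:**
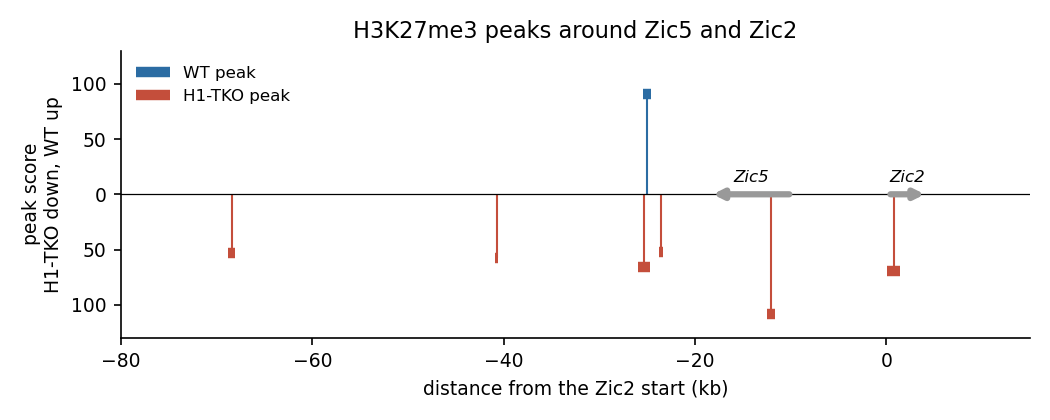
H3K27me3 peaks around Zic5 and Zic2, by distance from the Zic2 start (kb), with the MACS score of WT peaks upward and of H1-TKO peaks downward and grey arrows for the genes. The WT list holds 1 peak, downstream of Zic5, and the H1-TKO list 6, of which 1 lies in each gene.

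Genes within 1 Mb of the Zic2 start were looked up after their values had been seen. Besides the pair 9 could be tested, of which 1 was called higher and 0 lower by limma, beside 9.84% higher and 10.7% lower over all accessions, so a count of 0 among 9 is near the background. The count of lower genes was also 0 by edgeR, by DESeq2 and at an unadjusted p under 0.05. Clybl, whose middle lies 183 kb before the Zic2 start, was at 208.7 and 158.2 normalized counts in WT against 489.2 and 529.8 in H1-TKO, and rose by a log2 fold change of 1.48 (SE 0.21, limma adjusted p = 0.00632). The other 8 did not pass the limma test, from Gpr18 at a log2 fold change of −0.89 (adjusted p = 0.445) and Timm8a2 at −0.62 (adjusted p = 0.634) to Ubac2 at 0.31 (adjusted p = 0.225).

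Pou3f1 encodes a POU domain transcription factor, also known as OCT6. It is a single-exon gene on the plus strand of chr4:124334889-124337899. Its accession (NM_011141) was at 379.4 and 194.2 normalized counts in WT against 55.1 and 68.5 in H1-TKO. The WT libraries differed 1.95-fold from each other, and the lower one was still above both H1-TKO libraries. Pou3f1 fell by 2.13 on the log2 scale (SE 0.36, limma adjusted p = 0.0103). With 1 library left out the log2 fold change ran from −2.61 to −1.64. Of its relatives, Pou3f3 stayed at or below 19.0 normalized counts and did not pass the limma test (log2 fold change 1.32, adjusted p = 0.221), and Pou3f2 and Pou3f4 were too low to test.

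Pou3f1 had the most WT peaks of the 9 genes. The WT list held 4 peaks within 2 kb of its starts, with scores of 102.49, 60.47, 62.01 and 55.48, which ran with gaps from upstream of the gene to past its end. The H1-TKO list held 1 peak, with a score of 61.52, upstream of the gene. It overlapped the second WT peak by 956 bp, which is 94.4% of that WT peak and 78.9% of the H1-TKO peak. The part of the gene body that the WT peaks covered had no H1-TKO peak. Within the region that both lists held, chr4:124333901-124334100 (plus strand) has 9 CpGs in 200 bases. The third WT peak, which began 93 bp past the start and lay over the coding exon, had 11.6 CpGs per 100 bases.
Pou3f1 upstream, in a peak of both lists: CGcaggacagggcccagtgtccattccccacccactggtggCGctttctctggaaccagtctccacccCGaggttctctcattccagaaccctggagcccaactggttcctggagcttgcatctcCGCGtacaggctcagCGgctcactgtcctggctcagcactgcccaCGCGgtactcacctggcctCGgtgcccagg

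**Figure D3:**
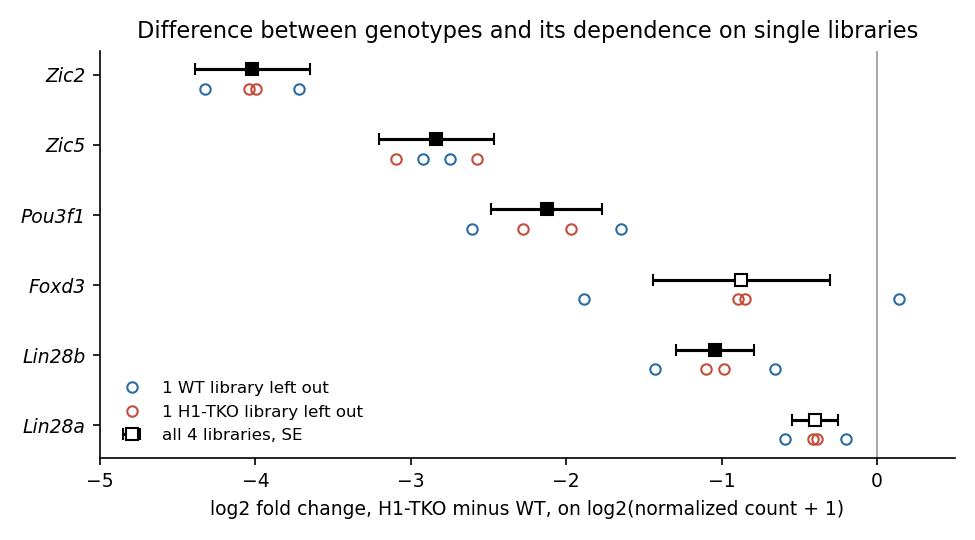
Log2 fold changes (H1-TKO minus WT) of the 6 measured genes with their standard errors (squares, filled where the adjusted p is under 0.05), and the values with 1 WT library (blue circles) or 1 H1-TKO library (red circles) left out. For Foxd3 the values without a WT library lie at −1.89 and 0.14, on both sides of 0.

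FOXD3 is a forkhead transcription factor that embryonic stem cells need for self-renewal and that acts again at the exit from the naive state and in neural crest. The gene has a single exon, on the plus strand of chr4:99322990-99325362. Foxd3 (NM_010425) was at 138.1 and 566.1 normalized counts in WT against 149.8 and 154.8 in H1-TKO. WT replicate 2 was 4.10 times WT replicate 1, and the genotypes overlapped. Its log2 fold change of −0.87 (SE 0.57) did not pass the test (limma adjusted p = 0.299). Leaving out WT replicate 1 gave −1.89 and leaving out WT replicate 2 gave 0.14, so its direction depended on which WT library was used. The other FOXD genes, Foxd1, Foxd2 and Foxd4, were too low to test.

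Foxd3 was the gene with a peak in the WT list only. That peak, chr4:99323213-99323723, was 511 bp wide, lay in the coding exon 223 bp past the start and had a score of 56.51, at percentile 20.2 of the WT list. A further WT peak with a score of 80.28 lay 3308 bp upstream. The nearest H1-TKO peak was 140.1 kb from the start. A peak within 2 kb in the WT list only was found for 3.63% of protein-coding genes. The 200 bases chr4:99323368-99323567 (plus strand) of the peak in the coding exon hold 26 CpGs, which are in capitals.
Foxd3 coding exon in the WT peak: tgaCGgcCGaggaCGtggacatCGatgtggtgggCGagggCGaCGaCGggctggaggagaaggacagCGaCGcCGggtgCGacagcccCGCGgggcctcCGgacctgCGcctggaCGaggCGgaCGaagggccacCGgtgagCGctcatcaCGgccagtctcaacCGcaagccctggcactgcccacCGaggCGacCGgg

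Lin28b and Lin28a encode the RNA-binding proteins of the group. Lin28b lies on the minus strand of chr10:45096426-45206201 and Lin28a on the minus strand of chr4:133559245-133574756. Lin28b (NM_001031772) was at 1086.1 and 635.9 normalized counts in WT against 419.8 and 386.5 in H1-TKO. It fell by 1.04 on the log2 scale (SE 0.25, limma adjusted p = 0.0292), with no overlap between genotypes. This call was the least stable of the 4. The adjusted p was 0.0677 without H1-TKO replicate 1 and 0.105 without H1-TKO replicate 2, and the log2 fold change was −0.66 without WT replicate 1. Over the alternatives that used all 4 libraries the adjusted p ran from 1.59e-05 to 0.125.

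Lin28a (NM_145833) was the most abundant of the measured genes. It was at 7299.6 and 5554.2 normalized counts in WT against 4866.6 and 4795.3 in H1-TKO. Both H1-TKO values were below both WT values, but the log2 fold change of −0.40 (SE 0.15) did not pass the test (limma adjusted p = 0.096). It was −0.20 with WT replicate 1 left out and −0.60 with WT replicate 2 left out, and then passed, with adjusted p-values that rest on the spread of a single genotype.

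Neither list held a peak near either LIN28 gene. The nearest WT peak was 231.3 kb from the Lin28a start and 133.2 kb from the Lin28b start, and the nearest H1-TKO peaks were 352.8 kb and 180.5 kb away. The window before the Lin28a start, chr4:133574757-133575006 on the minus strand, held 6 CpGs in 250 bases, below the median of 9, and is shown as a contrast to that of Zic2.
Lin28a upstream: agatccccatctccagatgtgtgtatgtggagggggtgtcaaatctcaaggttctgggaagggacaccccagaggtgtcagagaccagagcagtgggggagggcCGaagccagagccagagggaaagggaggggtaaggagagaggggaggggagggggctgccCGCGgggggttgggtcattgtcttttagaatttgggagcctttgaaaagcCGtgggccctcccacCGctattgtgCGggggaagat

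Levels were compared between genes per kilobase of the longest annotated transcript. In the WT libraries the mean level was 1834 normalized counts per kb for Lin28a, 159 for Lin28b, 148 for Foxd3, 95.5 for Pou3f1, 91.2 for Zic2 and 31.3 for Zic5. In the H1-TKO libraries the order was Lin28a at 1378, Lin28b at 74.6, Foxd3 at 64.2, Pou3f1 at 20.6, Zic2 at 5.14 and Zic5 at 4.27. Lin28a was thus apart from all others in both genotypes. In WT most neighbours in the order overlapped. Foxd3, at 58.2 and 239 per kb, overlapped Lin28b (118 and 201), Pou3f1 (64.6 and 126) and Zic2 (72.3 and 110), and Pou3f1 overlapped Lin28b and Zic2 as well, while both Lin28b values were above both Zic2 values. Zic5, at 29.5 and 33.2, was below them. In H1-TKO, Zic2 at 5.05 and 5.23 and Zic5 at 3.47 and 5.08 overlapped.

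H3K27me3 peaks within 2 kb of a start were listed in WT at 4 of the 9 genes (Fgf5, Pou3f1, Sall2 and Foxd3) and in H1-TKO at 5 (Fgf5, Pou3f1, Zic2, Zic5 and Sall2). Over all protein-coding genes the shares were 14.3% in WT and 13.1% in H1-TKO. The WT list held 8 such peaks and the H1-TKO list 6. At least 1 bp was shared with the other list by 3 of the 8 WT peaks and by 4 of the 6 H1-TKO peaks. Both lists held peaks at Fgf5, Pou3f1 and Sall2. At Fgf5 the WT peak, chr5:98683157-98684185 with a score of 133.97, reached from just before the start into coding sequence, and the H1-TKO peak, chr5:98682409-98683410 with a score of 71.35, lay mostly upstream. They shared 254 bp, and both held the start. At Sall2 the strongest WT peak of the 9 genes, with a score of 176.26, lay over coding exon sequence near an internal start, and the H1-TKO list held 2 peaks there with scores of 69.29 and 79.06. Otx2, Lin28a and Lin28b had no peak within 2 kb in either list. Otx2 had 1 peak in each list further upstream, at 4972 bp (WT, score 53.86) and 2436 bp (H1-TKO, score 54.23) from the nearest start, and these did not overlap.

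**Figure D4:**
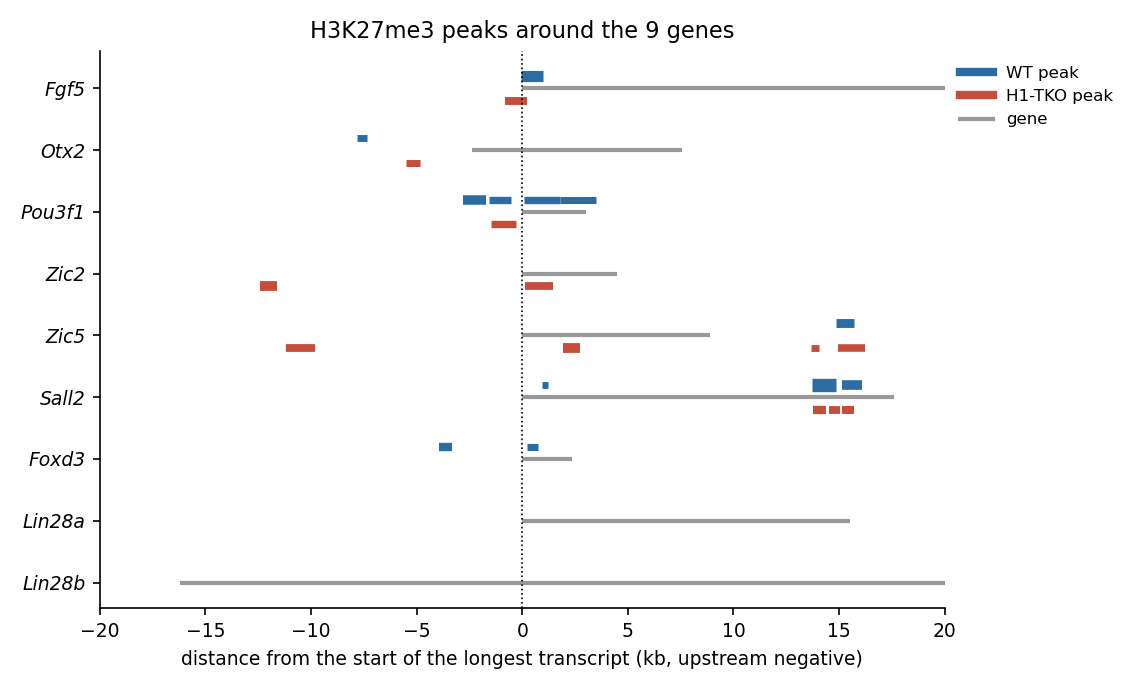
H3K27me3 peaks of the WT list (blue) and the H1-TKO list (red) within 20 kb of the start of the longest transcript of each gene, by distance in kb with upstream negative, with thicker bars for higher scores and grey lines for the genes. Zic2 and Zic5 carry a peak near the start in the H1-TKO list only, Foxd3 in the WT list only, and Lin28a and Lin28b in neither.

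The genes did not share one kind of start. The 250 bases before the start held more CpGs than the median window in 6 of the 9 genes, with 33 for Pou3f1, 31 for Zic2, 24 for Fgf5, 21 for Foxd3, 16 for Otx2 and 11 for Zic5. Lin28a and Lin28b held 6 each and Sall2 held 3. Each window was searched on both strands for 4 motifs. The POU octamer ATGCAAAT was in none of the 9 windows and in 1.65% of all windows. The OTX motif TAATCC was in the Otx2 window alone, against 6.31% of all windows. The GC box GGGCGG occurred 4 times before Zic2, 3 times before Pou3f1 and once before Fgf5, and in 41.2% of all windows. The TATA sequence TATAAA was before Sall2 and in 12.2% of all windows. A match is a description of the letters only.

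Genes that share a pathway or a state with the 9 were looked up in lists of known genes. Of 20 other formative genes, 14 could be tested, 4 fell and 2 rose, with a median log2 fold change of −0.48. Over all accessions 10.7% were lower and 9.84% higher, so the count of 2 higher is near the background. Cdh2, which encodes N-cadherin, was at 205.6 and 115.6 normalized counts in WT against 14.3 and 13.7 in H1-TKO, and fell by 3.37 (log2; SE 0.42, limma adjusted p = 0.00446). Grhl2, an epithelial transcription factor of the formative state, fell by 0.94, Etv4 by 0.78 and the kinase gene Pim2 by 0.66. Among those that rose was the receptor gene Epha4, by 1.05. Without WT replicate 1 the log2 fold change of Epha4 was 0.63, and without WT replicate 2 that of Etv4 was −0.49. Etv5 (−0.31), Fgf15 (−1.18), Sox3 (−1.31) and Utf1 (0.43) did not pass the test. Without H1-TKO replicate 1 or replicate 2 only 1 gene of the list was called lower and none higher, by limma with a single H1-TKO library.

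Of 14 gastrulation genes, 7 were tested, and 4 fell, beside 10.7% lower over all accessions. None rose by limma, edgeR or DESeq2, nor at an unadjusted p under 0.05. The 4 belong to the WNT and NODAL pathways. Wnt3, a ligand of primitive streak formation, was at 37.2 and 48.0 against 3.3 and 6.3 normalized counts and fell by 2.95 (limma adjusted p = 0.0178). It passed the filter, a mean of at least 10, only through its WT values, and its H1-TKO values rest on few reads. With a mean of at least 50 Wnt3 was not tested, and 3 genes of the list were called lower. Of the genes of secreted NODAL antagonists, Lefty1, at 179.2 and 342.5 against 30.9 and 66.4, fell by 2.43. Lefty2, at 413.5 and 1154.0 against 154.3 and 159.0, had a log2 fold change of −2.13 (limma adjusted p = 0.016), which became −2.87 without WT replicate 1 and −1.40 without WT replicate 2. The NODAL co-receptor gene Tdgf1 fell by 0.50. Nodal itself was at 408.1 and 750.4 against 781.2 and 673.0. Its log2 fold change of 0.39 did not pass the test (limma adjusted p = 0.344). The other tested genes, T and Mixl1, did not pass either. Their log2 fold changes were 0.56 and 0.49 (limma adjusted p = 0.536 and 0.629). Both H1-TKO values were above both WT values for T and Mixl1, which were low in every library. Without H1-TKO replicate 1 the count of lower genes was 2.

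Of 16 naive pluripotency genes, 11 were tested, 4 rose, 2 fell and 5 did not pass the test, with a median log2 fold change of 0.49. The shares over all accessions were 9.84% higher and 10.7% lower, and the count of 2 lower is near the background. Tfcp2l1 was at 4436.9 and 3938.7 normalized counts in WT against 8316.4 and 8055.0 in H1-TKO and rose by 0.97 (log2; SE 0.12, limma adjusted p = 0.00418). Fgf4, the ligand that drives the exit from the naive state, rose by 0.78 and Klf5 by 0.58. Klf4 was at 673.4 and 1747.4 in WT against 3142.3 and 2796.3 in H1-TKO and rose by 1.45 (limma adjusted p = 0.0371). That call was not made by edgeR (adjusted p = 0.0541) or DESeq2 (adjusted p = 0.136), and leaving out WT replicate 1 or WT replicate 2 gave log2 fold changes of 0.76 and 2.14. Gbx2, at 226.5 and 521.4 against 144.3 and 90.6, fell by 1.58, and its log2 fold change was −0.98 without WT replicate 2. The DNA demethylase gene Tet2 fell by 1.33. Without either H1-TKO library in turn 2 naive genes were called higher, and without WT replicate 2 there were 7. Sox2, the tested gene among 3 core pluripotency genes, rose by 1.04 (adjusted p = 0.00773). The receptor gene Fgfr4 was at 41.9 and 74.2 against 362.5 and 280.2 and rose by 2.49 (SE 0.33, limma adjusted p = 0.00556), while the other FGF receptor genes had several accessions and were not measured. Of the SALL genes related to Sall2, Sall1 fell by 0.50 and Sall3 by 2.50.

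**Figure D5:**
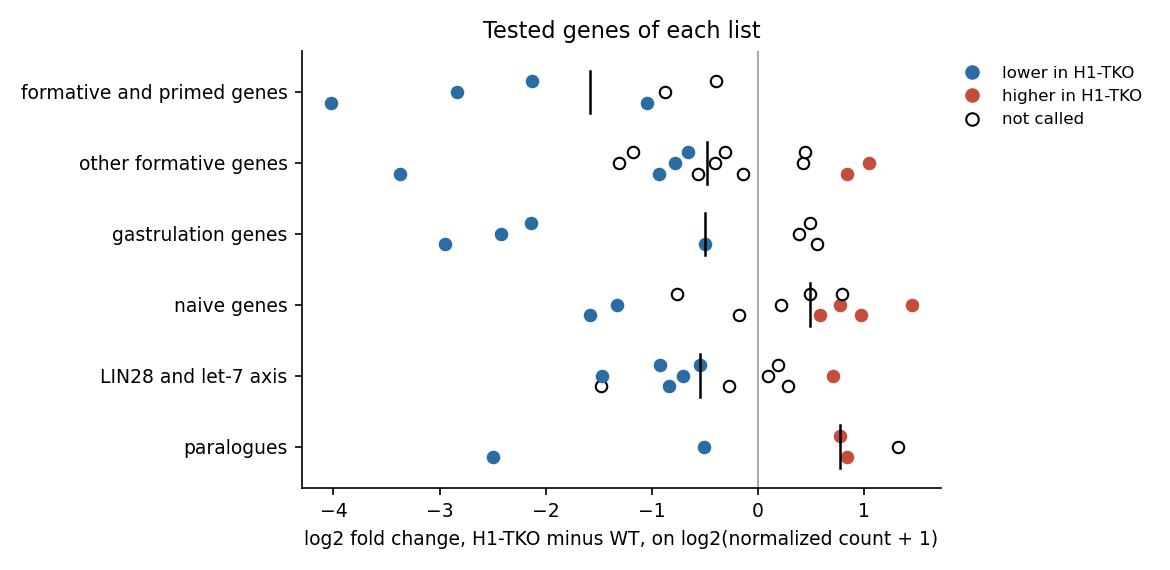
Log2 fold changes (H1-TKO minus WT) of the tested genes of each list, blue where called lower, red where called higher and open where not called, with a line at the median. The 6 measured formative and primed genes lie below 0 with a median of −1.58, and the naive genes have a median of 0.49.

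Genes around LIN28 and let-7 were also listed, 14 in all, of which 11 were tested, 5 fell and 1 rose, beside 10.7% lower and 9.84% higher over all accessions. The count of 1 higher is at the background. Igf2bp1, an mRNA-binding protein gene and a known target of let-7, was at 15825.1 and 15352.5 normalized counts in WT against 5831.8 and 5444.1 in H1-TKO, and fell by 1.47 (log2; SE 0.11, limma adjusted p = 0.00126). Igf2bp2 fell by 0.71 and Trim71, another let-7 target, by 0.84. Of the miRNA processing genes, Dgcr8 fell by 0.92 and Dicer1 by 0.55. Zcchc11 (Tut4), the uridylyl transferase that works with LIN28A, rose by 0.70, or by 0.46 without WT replicate 2. Hmga2, a classical let-7 target, was at 617.5 and 195.2 against 122.3 and 126.4 and did not pass the test (adjusted p = 0.0672). Without H1-TKO replicate 1 or replicate 2 the count of lower genes in this list was 1, with none higher. The let-7 miRNAs themselves are not in poly(A) RNA-seq.

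Some markers of other cell types differed between the genotypes as well. Over all accessions 10.7% were lower and 9.84% higher. Only 2 to 4 markers of each cell type could be tested, so the counts below say little beside these shares. Sox1, Gata4, Sox7, Hand1 and Col1a2 were tested and did not pass by limma. Of 8 neuroectoderm markers 3 were tested and 2 fell. Nes was at 2920.2 and 848.6 normalized counts in WT against 203.8 and 224.3 in H1-TKO, a log2 fold change of −2.87 (limma adjusted p = 0.0105), and Tubb3 fell by 0.87. The log2 fold change was −1.98 for Nes without WT replicate 1 and −0.57 for Tubb3 without WT replicate 2. Summed over the neuroectoderm markers with 1 accession, and mostly from Nes and Tubb3, the level was 3852.8 and 2280.8 in WT and 815.3 and 885.7 in H1-TKO. Among these markers Sox1 was at or below 28.4 and Neurog1 and Neurog2 at or below 4.2 in every library. Of 7 trophectoderm markers 2 were tested and 1 fell, Krt8, at 1437.6 and 314.1 against 72.7 and 112.7, and Cdx2 was at 26.4 and 0 against 3.3 and 0. Without WT replicate 1 the log2 fold change of Krt8 was −1.78, against −2.88 with all libraries. The trophectoderm sums, mostly from Krt8, were 1639.3 and 377.4 in WT and 112.4 and 116.9 in H1-TKO. Of 8 primitive endoderm markers 3 were tested and Lama1 fell, and Gata6 was at or below 10.9. The primitive endoderm sums, mostly from Lama1, were 1319.7 and 1712.4 against 914.4 and 821.4. Of 8 fibroblast markers 4 were tested, and Col1a1 and Fbn1 fell while Thy1 rose. Col1a1 was at 195.5 and 148.3 in WT against 34.2 and 53.7 in H1-TKO. Fbn1 was at 238.2 and 106.9 against 18.7 and 15.8, and Thy1 at 109.4 and 125.4 against 449.5 and 510.8. The fibroblast sums, 591.9 and 405.7 against 528.8 and 591.9, overlapped, and those of H1-TKO came mostly from Thy1. The mESC markers Sox2 and Zfp42 were at 3958.2 or more in every library. Pou3f1, Lin28a and Lin28b were higher in WT replicate 1, while Zic2, Zic5 and Foxd3 were higher in WT replicate 2. The called markers went both ways between the WT libraries. Nes, Krt8, Col1a1 and Fbn1 were higher in WT replicate 1, and Tubb3, Lama1 and Thy1 in WT replicate 2. The part of these markers in the lower values of Zic2, Zic5, Pou3f1 and Lin28b was not tested.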

How the data were processed

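Poly(A) RNA-seq (2 WT and 2 H1-TKO libraries) and H3K27me3 ChIP-seq peak lists (1 replicate per genotype) were used. For RNA-seq the authors mapped reads with Subread to mm9, kept unique reads and used featureCounts and DESeq2. The deposited signal is a count divided by a size factor, and 100% of values were whole multiples of 1 read, within 0.01 read plus a relative 1e-06. For ChIP-seq the authors used Bowtie2 (mm9) and MACS, and the deposited score of a peak grows with the −log10 of its p-value. Symbols for 33650 of 34010 accessions were looked up in RefSeq (GRCm38.p6), for naming alone. Places, starts and sequences came from GENCODE M1 and NCBIM37, the same build as mm9.

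Accessions with a mean of at least 10 were tested with limma 3.58.1 in R 4.3.3 on log2(normalized count + 1), eBayes with trend, no block, and Benjamini-Hochberg adjustment at 0.05. The recovered reads were tested with edgeR 4.0.16 and with DESeq2 1.42.0 as alternatives, beside other pseudocounts, filters and scalings, a replicate block, and each library left out. Tested on simulated data for H1-TKO minus WT over 11170 genes, with 200 changed by a log2 fold of 2, limma recovered 175 with 2 false calls. Those data had a dispersion of 0.05, and the rate of false calls at the spread of the real libraries was not tested. Peaks counted within 2 kb of any annotated start. Python 3.11.15, pandas 2.3.3 and matplotlib 3.10.9 were used. Named genes were the 9 members, and of other lists those past the threshold, with paralogues, the markers of highest level and H1c, H1d and H1e. Other genes named, with their values, were chosen after these were seen. The members and lists were chosen with earlier results of these data known. The values of some listed genes are not reported here.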

Additional observations from a re-analysis of the deposited data

How the results depend on the processing

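Zic2 stayed lower and past the threshold in all 14 alternatives, and Zic5 and Pou3f1 in 13. Without a trend in the variance the adjusted p was 0.0521 for Zic5, 0.0699 for Pou3f1 and 0.125 for Lin28b, so 1 of the 6 genes was called lower, and 37 accessions were lower and 43 higher. With no filter on low values Lin28b had an adjusted p of 0.0667, and 697 accessions were lower and 624 higher. With 1 library left out, 3 to 6 of the 6 genes were called lower, none higher, and over all accessions 386 to 2786 were lower and 199 to 2682 higher. The log2 fold change of Foxd3 ran from −1.89 to 0.14, turning without WT replicate 2. The replicate numbers did not pair the libraries (r = 0.011 over 11113 accessions between the deviations of same-numbered libraries). With the replicate block 5 of the 6 were lower, Foxd3 being added at an adjusted p of 0.00989. The fits with a block or with a library left out have 1 residual degree of freedom or a lone sample that is assumed to vary like the others, and their p-values rest on the spread pooled over genes.

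Without a trend the other formative, gastrulation, naive and LIN28 lists had 0 genes called by limma in either direction. With no filter on low values 1 other formative, 2 naive and 0 LIN28 list genes were higher and 1 naive gene was lower. With 1 library left out, the lower and higher genes numbered 1 to 8 and 0 to 3 (other formative), 2 to 4 and 0 to 1 (gastrulation), 1 to 3 and 2 to 7 (naive), and 1 to 7 and 0 to 4 (LIN28). Of 474 values for 34 other named genes, 391 kept their call, 83 lost it and none turned.

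With a window of 1 kb, 3 genes had an H1-TKO peak, with 5 WT and 3 H1-TKO peaks, 2 genes with WT peaks only and 1 with an H1-TKO peak only (Zic2). With scores of at least 100, 1 gene (Zic5) had an H1-TKO peak, with 3 WT peaks and 1 H1-TKO peak, 3 genes with WT peaks only and 1 with an H1-TKO peak only. Windows of 5 kb and whole gene bodies moved no count by over 1.5 times. The causes were not tested. Low reads limit Zic2, Zic5 and Wnt3 in H1-TKO. The peak lists hold no depth, though the study reports similar read numbers for both ChIP-seq replicates.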
